A study of Caenorhabditis nigoni and Caenorhabditis briggsae with 14 samples.

Results

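Repeat families whose identifiers begin with cb were examined in male libraries of 4 nematode strains. These are 361 of the 920 families in the deposited repeat counts, and the other 559 carry the prefix c_sp9. The prefixes are read here as Caenorhabditis briggsae and as the earlier name of C. nigoni, the species with which C. briggsae forms hybrids. All 361 identifiers with the prefix were taken. Of these, 276 had at least 10 counts over the 12 libraries and were tested, 48 had fewer counts and 37 had none. At the edge of that minimum, cb_rnd-4_family-13 and cb_rnd-5_family-9052 had 9 counts, while cb_rnd-4_family-2014 and cb_rnd-5_family-316 had 10.

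A repeat family is a group of similar sequences found many times in a genome. Most are transposable elements, DNA transposons or retrotransposons, which can place copies of themselves elsewhere and which small RNA pathways, piRNAs among them, keep silent in the germ line of nematodes. Searches that build families without a reference library work in successive rounds and go by copy number alone, so a family can also stand for a group of near-identical genes. The part rnd of each identifier is read here as that round. The files give no class, sequence or position of any family, so each is known by its number and no role is given.

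ZZY10307 males carried C. briggsae X chromosome from 4.5 to 12.2 Mb in an otherwise C. nigoni genome, and ZZY10330 males carried it from 16.4 Mb to the chromosome end. Both kinds of male were sterile. They were sons of fertile females with the introgression and JU1421 males, chosen by the transgene cbr-myo-2::GFP, and each strain stands for 1 introgressed interval. AF16 males were wild-type C. briggsae, a species whose XX animals are normally hermaphrodites, and JU1421 males were wild-type C. nigoni, which has males and females. Both were fertile. Each strain had 3 libraries of messenger RNA from 300 pooled young adult males, whole animals in each case. Nothing in the labels ties replicates to separate cultures, and p-values therefore concern only the scatter among these libraries. For the edgeR tests used below that spread is shared by nearly all families. A family's own scatter hardly enters its edgeR p-value or SE. Each edgeR SE is the size of the log2 difference divided by the square root of the F statistic of its test. It therefore restates the test and is no separate estimate of precision.

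Levels are counts per 1000000 gene counts of the same library (CPM), so a family is measured against the gene RNA of its own library. The libraries held 2372653 to 3785106 gene counts and 112876 to 536392 repeat counts. Replicate 1 of ZZY10330 had 14531 genes with a count, against 12516 and 12854 in replicates 2 and 3, and it had 172 cb families with a count, against 115 and 108. Male-biased genes, a list of 1854 genes built earlier on these data, took 11.6 to 12.7% of gene counts in ZZY10307 and 16.9 to 20.5% in ZZY10330. They took 30.9 to 32.1% in AF16 and 30.6 to 33.9% in JU1421. The labels name no batch.

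One family dominated the cb counts and made up most of the difference between strains in their total. Summed over all 361 families, the level was 39723, 29058 and 33886 CPM in ZZY10307, and 76585, 55593 and 92469.5 CPM in ZZY10330. AF16 had 94075, 99148 and 91979.8 CPM, and JU1421 had 142708, 168962 and 141211 CPM. All libraries of ZZY10307 lay below all others, all libraries of JU1421 lay above all others, and ZZY10330 overlapped AF16.

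Against JU1421 (150960 ± 15608 CPM, SD, n = 3) the sum was 0.227 of that level in ZZY10307, 0.496 in ZZY10330 and 0.630 in AF16. Each of these comparisons gave p = 0.1 in an exact two-sided permutation test, the lowest value that 3 against 3 libraries can give. ZZY10330 stood at 2.19 times ZZY10307 (exact p = 0.1). ZZY10307 stood at 0.360 of AF16 (exact p = 0.1) and ZZY10330 at 0.788 of AF16 (exact p = 0.2). In bulk RNA of whole animals, fewer cells of a type and less RNA per cell cannot be told apart.

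**Figure D1:**
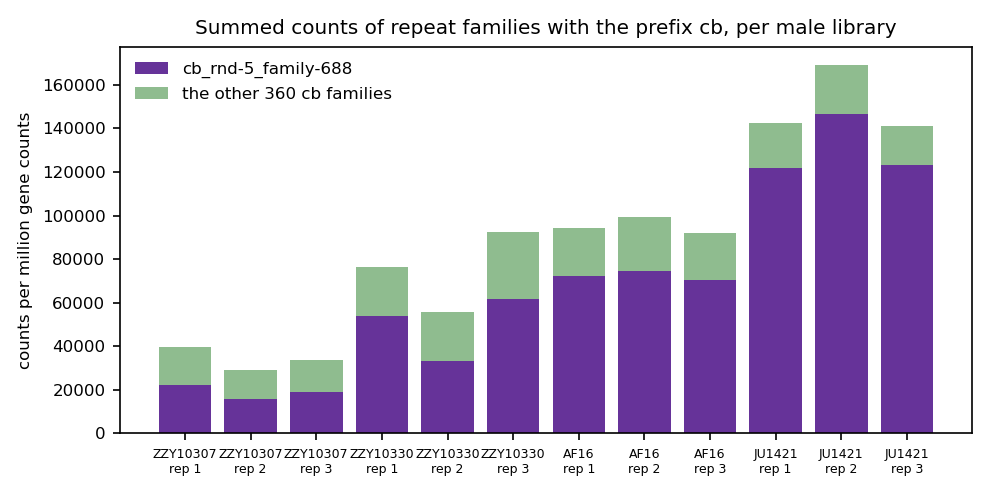
Summed level of the 361 cb families in each male library, in CPM, split into cb_rnd-5_family-688 and all other cb families. The bars of ZZY10307 are the lowest and those of JU1421 the highest, and the upper segments differ far less than the lower ones.

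The dominant family, cb_rnd-5_family-688, had 22368, 15770.2 and 18824 CPM in ZZY10307, and 53654, 33332 and 61606 CPM in ZZY10330. It had 72446, 74718 and 70398 CPM in AF16, and 121989, 146468 and 123132 CPM in JU1421. No library of any strain overlapped a library of another strain in this family. Its share of the cb counts was 55.5% in ZZY10307, 66.1% in ZZY10330, 76.3% in AF16 and 86.5% in JU1421. Although it carries the C. briggsae prefix, its level was lower in C. briggsae males than in C. nigoni males (log2 difference -0.85, SE 0.19, edgeR quasi-likelihood test, Benjamini-Hochberg adjusted p = 5.51e-05).

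Relative to JU1421 the family fell by 2.78 on the log2 scale in ZZY10307 (SE 0.20, edgeR adjusted p = 7.30e-42) and by 1.40 in ZZY10330 (SE 0.19, edgeR adjusted p = 1.36e-11). Between the sterile strains it was higher in ZZY10330 than in ZZY10307, by 1.38 on the log2 scale (SE 0.19, edgeR adjusted p = 3.98e-11). Relative to AF16 it fell by 1.93 in ZZY10307 (SE 0.19, edgeR adjusted p = 2.01e-22). The difference of ZZY10330 from AF16 was small, -0.55 on the log2 scale (SE 0.18, edgeR adjusted p = 0.0161), and the call was lost without any 1 of 3 libraries. Without ZZY10330 replicate 2 it was -0.33 (adjusted p = 0.0953), without AF16 replicate 1 -0.55 (adjusted p = 0.0563), and without AF16 replicate 2 -0.53 (adjusted p = 0.0623).

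Without cb_rnd-5_family-688 the picture was different. The other 360 families summed to 17356, 13288 and 15062 CPM in ZZY10307, 22931, 22260.4 and 30863 CPM in ZZY10330, 21629, 24430.1 and 21582 CPM in AF16, and 20718, 22494 and 18078 CPM in JU1421. Only the libraries of ZZY10307 stood apart, below all of the others. Their mean was 0.746 of JU1421, 0.676 of AF16, and the mean of ZZY10330 was 1.66 times theirs (exact p = 0.1 in each). ZZY10330 stood at 1.24 times JU1421 (exact p = 0.2) and 1.12 times AF16 (exact p = 0.5), and AF16 at 1.10 times JU1421 (exact p = 0.4).

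A second abundant family, cb_rnd-5_family-2438, followed the same order of strains. It had 2829.9, 2156 and 2129 CPM in ZZY10307, 5403, 3422 and 6658 CPM in ZZY10330, 6277, 7053 and 7393 CPM in AF16, and 10984, 13248 and 11429 CPM in JU1421. Only ZZY10330 and AF16 overlapped. Relative to JU1421 it fell by 2.33 on the log2 scale in ZZY10307 (SE 0.22, edgeR adjusted p = 9.57e-24), by 1.20 in ZZY10330 (SE 0.21, adjusted p = 1.11e-06) and by 0.78 in AF16 (SE 0.21, adjusted p = 0.00162). The AF16 call was lost with TMM factors of the repeat counts (-0.69, adjusted p = 0.1002). It was higher in ZZY10330 than in ZZY10307 by 1.12 (SE 0.21, adjusted p = 1.40e-05). Against AF16 it was lower in ZZY10307 by a log2 difference of -1.54 (adjusted p = 1.36e-11), while the -0.42 of ZZY10330 did not pass (adjusted p = 0.130).

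The level of cb_rnd-5_family-2438 was also taken as a percent of cb_rnd-5_family-688. It was 12.7, 13.7 and 11.3% in ZZY10307, 10.1, 10.3 and 10.8% in ZZY10330, 8.66, 9.44 and 10.5% in AF16, and 9.00, 9.05 and 9.28% in JU1421. The libraries of ZZY10307 lay above all the others. Both families were low where the share of male-biased genes was low, in ZZY10307 and then in ZZY10330. AF16 and JU1421 overlapped in that share, yet differed in both families. The part of the male-biased share in these levels was not tested.

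**Figure D2:**
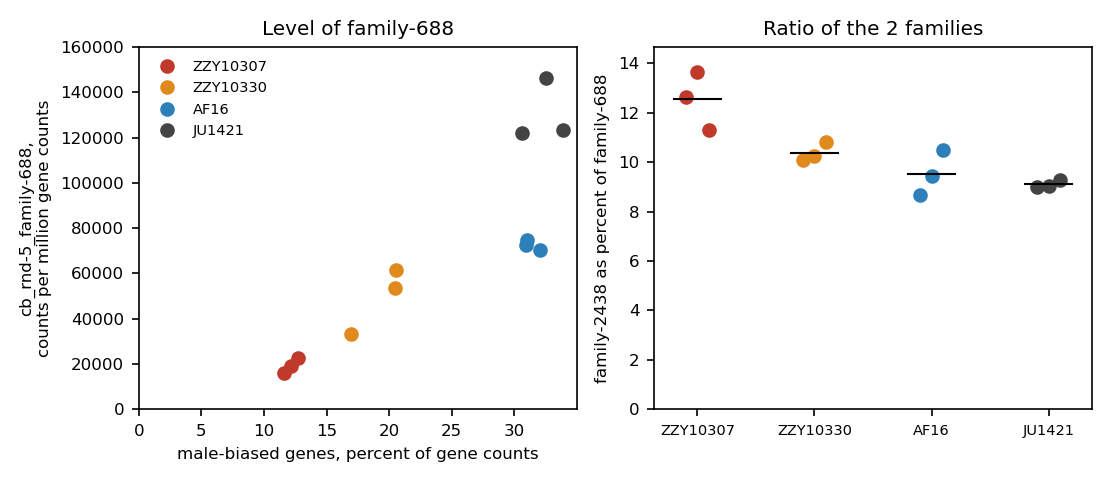
Left, level of cb_rnd-5_family-688 in CPM against the percent of gene counts in 1854 male-biased genes, with 1 point per library. Right, level of cb_rnd-5_family-2438 as a percent of cb_rnd-5_family-688, with points for libraries and bars for means (n = 3). The libraries of ZZY10307 are lowest on both axes at left, and AF16 and JU1421 share one range of male-biased share at different levels of the family.

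The cb counts were concentrated in few families in every strain. The 10 most abundant by mean level over the 12 libraries held 97.3% of cb counts in ZZY10307, 98.9% in ZZY10330, 98.0% in AF16 and 99.6% in JU1421. A mean of at least 100 CPM was reached by 9 families in ZZY10307, 9 in ZZY10330, 8 in AF16 and 9 in JU1421. A mean of at least 1 CPM was reached by 145, 140, 200 and 113 families in the same strains. The 10 families did not move together: besides the 2 above, they include families that were higher in sterile males, families that separated the species, and families that hardly differed.

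**Figure D3:**
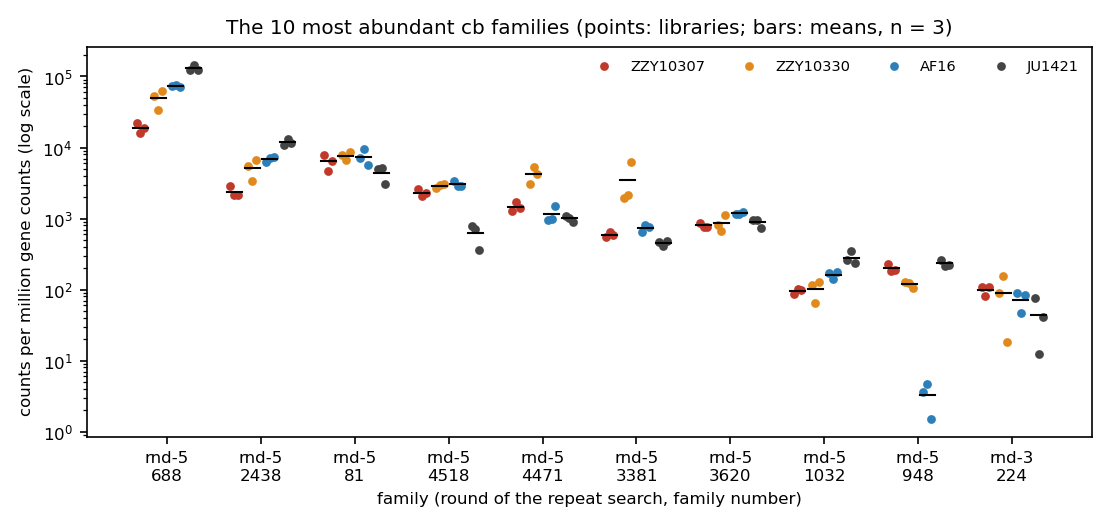
Levels of the 10 most abundant cb families in CPM on a log scale, with points for the 3 libraries of each strain and bars for their means. The order of strains differs between families: cb_rnd-5_family-688 is highest in JU1421, cb_rnd-5_family-4518 lowest in JU1421, cb_rnd-5_family-3381 highest in ZZY10330, and cb_rnd-5_family-948 nearly without counts in AF16.

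Family cb_rnd-5_family-4518 was high in the sterile males and in C. briggsae males, and low in C. nigoni males. It had 2611, 2083 and 2283 CPM in ZZY10307, 2712, 2942 and 3032 CPM in ZZY10330, 3365, 2879 and 2893 CPM in AF16, and 792, 723 and 363 CPM in JU1421. JU1421 lay below every other library. The log2 difference from JU1421 was 1.89 for ZZY10307 (SE 0.24, edgeR adjusted p = 1.49e-13), 2.21 for ZZY10330 (SE 0.24, adjusted p = 5.31e-18) and 2.28 for AF16 (SE 0.24, adjusted p = 7.57e-20). The sterile strains differed from AF16 by -0.39 (ZZY10307, adjusted p = 0.201) and -0.07 (ZZY10330, adjusted p = 0.883), neither past the test. The libraries of ZZY10307 nevertheless lay below those of AF16, and that difference passed with TMM factors of the gene counts (-0.68, adjusted p = 0.0334) and with DESeq2 size factors (-0.71, adjusted p = 0.0216).

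In ZZY10330 a pair of families stood above every other strain. cb_rnd-5_family-3381 had 1932, 2165 and 6282 CPM there, against 550.0, 651 and 585 CPM in ZZY10307, 649.8, 818 and 763 CPM in AF16, and 472, 417 and 479 CPM in JU1421. ZZY10330 did not overlap another strain, and its replicate 3 was far above its other two libraries. The log2 difference of ZZY10330 was 2.92 from JU1421 (SE 0.26, edgeR adjusted p = 1.10e-25), 2.54 from ZZY10307 (SE 0.25, adjusted p = 9.90e-20) and 2.22 from AF16 (SE 0.25, adjusted p = 1.52e-16). Without replicate 3 of ZZY10330 these values were 2.17, 1.78 and 1.46, and all 3 calls held. AF16 was higher than JU1421 by 0.71 (SE 0.24, adjusted p = 0.0213), a call lost without JU1421 replicate 1 (0.0530) or 2 (0.0923) or AF16 replicate 2 (0.0886) or 3 (0.0562), and with TMM factors (0.0792).

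The second of them, cb_rnd-5_family-4471, had 3064, 5239 and 4202 CPM in ZZY10330, against 1272, 1721 and 1419 CPM in ZZY10307, 968, 987 and 1509 CPM in AF16, and 1079, 1017 and 908 CPM in JU1421. Again all 3 libraries of ZZY10330 lay above all the rest. The log2 difference was 2.06 from JU1421 (SE 0.24, edgeR adjusted p = 1.87e-15), 1.50 from ZZY10307 (SE 0.24, adjusted p = 3.13e-08) and 1.85 from AF16 (SE 0.24, adjusted p = 2.18e-13). ZZY10307 did not differ from JU1421 past the test in either family, with 0.39 (adjusted p = 0.464) for cb_rnd-5_family-3381 and 0.55 (adjusted p = 0.208) for cb_rnd-5_family-4471. The second passed with edgeR fitted to the 6 libraries of these strains alone (adjusted p = 0.0127) and, at 0.85, with repeat totals as library sizes (adjusted p = 0.00363). Repeat totals used as library sizes leave out the most abundant family, here and below.

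The reverse of a C. briggsae label was seen in cb_rnd-5_family-948. It had 226, 183 and 188 CPM in ZZY10307, 129, 124 and 104 CPM in ZZY10330, 3.57, 4.61 and 1.51 CPM in AF16, and 259.6, 214 and 225 CPM in JU1421. AF16 lay far below every other library, and the libraries of ZZY10330 lay below those of ZZY10307 and JU1421. AF16 was lower than JU1421 by a log2 difference of -6.13 (SE 0.42, edgeR adjusted p = 5.34e-46). The sterile strains were higher than AF16 by 5.90 in ZZY10307 (SE 0.41, adjusted p = 1.32e-43) and 5.16 in ZZY10330 (SE 0.40, adjusted p = 2.28e-35). From JU1421 they differed by -0.23 in ZZY10307 (adjusted p = 0.907) and by -0.97 in ZZY10330 (adjusted p = 0.0507, just outside the threshold). The difference of ZZY10330 passed with TMM factors of the gene counts (-1.21, adjusted p = 0.00936) and with DESeq2 (-0.97, adjusted p = 0.00616), among others.

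The remaining 4 of the 10 are given next. cb_rnd-5_family-81 averaged 6355 ± 1621 CPM in ZZY10307, 7699 ± 1092 in ZZY10330, 7421 ± 2003 in AF16 and 4414 ± 1195 in JU1421 (SD, n = 3). It passed the edgeR test in ZZY10330 against JU1421 (log2 0.80, SE 0.21, adjusted p = 0.00540) and in AF16 against JU1421 (0.75, SE 0.21, adjusted p = 0.00287). The first call was lost without JU1421 replicate 3 (0.59, adjusted p = 0.206) and with TMM factors (0.57, adjusted p = 0.177). The second was lost without JU1421 replicate 3 (0.54, adjusted p = 0.0984) or AF16 replicate 2 (0.52, adjusted p = 0.111). ZZY10307 differed from JU1421 by 0.53 (adjusted p = 0.174), which passed with the 6 libraries alone (adjusted p = 0.0151) and, at 0.79, with repeat totals (adjusted p = 0.000767).

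cb_rnd-5_family-1032 averaged 95.9 ± 8.05 CPM in ZZY10307, 103 ± 35.0 in ZZY10330, 162 ± 18.4 in AF16 and 281 ± 55.8 in JU1421. It fell relative to JU1421 by 1.55 on the log2 scale in ZZY10307 (SE 0.32, edgeR adjusted p = 7.30e-05) and by 1.44 in ZZY10330 (SE 0.32, adjusted p = 0.000349). The -0.79 of AF16 missed the threshold (adjusted p = 0.0543), as did the -0.76 of ZZY10307 against AF16 (adjusted p = 0.0639). Both passed with TMM factors of the gene counts (-0.90 and -1.05, adjusted p = 0.0258 and 0.00749), with DESeq2 (adjusted p = 0.0291 and 0.0403) and with limma, an alternative added after seeing the data (adjusted p = 0.0423 and 0.0446).

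cb_rnd-5_family-3620 had between 657 and 1254 CPM in all 12 libraries and passed in none of the 6 comparisons. Its libraries of ZZY10307 (869, 770.4 and 756 CPM) lay below those of AF16 (1146, 1151 and 1254 CPM), with a log2 difference of -0.57 (SE 0.25, edgeR adjusted p = 0.0766). That difference was called under other settings: with TMM factors of the gene counts (-0.86, adjusted p = 0.00783), DESeq2 size factors (-0.89, 0.00483), TMM on repeat counts (-0.96, 0.0222), DESeq2 (-0.57, 0.0482), the 6 libraries alone (-0.57, 0.0130) and limma (-0.57, 0.0453). The ZZY10330 libraries also lay below those of AF16 (-0.46, edgeR adjusted p = 0.164). That difference passed with repeat totals (-0.75, 0.0122) and without ZZY10330 replicate 3 (-0.70, 0.0417). cb_rnd-3_family-224 ranged from 18.5 to 157 CPM within ZZY10330 alone and passed in no comparison either. Its 1.21 in ZZY10307 against JU1421 (adjusted p = 0.286) passed with the 6 libraries alone (adjusted p = 0.0170), without JU1421 replicate 1 (1.89, 0.00595) and without ZZY10330 replicate 3 (0.0226). Without JU1421 replicate 1 its difference from JU1421 also passed in ZZY10330 (1.72, 0.0155) and in AF16 (1.42, 0.0222). The ZZY10330 difference passed without ZZY10330 replicate 3 as well (1.52, 0.00457).

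Among all families tested, few cb families differed between the sterile strains and JU1421. In ZZY10307 against JU1421, 6 of 276 cb families were higher and 3 lower at an edgeR adjusted p below 0.05. These were 3.26% of the cb families, near the 3.88% called among all 696 repeat families tested (2.3% higher and 1.58% lower). The median log2 difference of the tested cb families was 0.39, against 0.47 over all families tested. Levels here depend on the scaling: with TMM factors of the gene counts all families move by -0.40 on the log2 scale in this comparison, and the calls became 3 higher and 6 lower. With edgeR fitted to the 6 libraries of these strains alone, 12 were higher and 5 lower. Shares over all families are given only for the fit to all 12 libraries with gene totals as library sizes. Counts under other settings, here and below, have no such share beside them.

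The 3 cb families lower in ZZY10307 were cb_rnd-5_family-688, cb_rnd-5_family-2438 and cb_rnd-5_family-1032. Of the 6 that were higher, cb_rnd-5_family-4518 is described above and the others were scarce. cb_rnd-3_family-789 had 16.7, 11.3 and 12.1 CPM in ZZY10307, 1.16, 0 and 0 CPM in ZZY10330, 20.8, 19.0 and 26.7 CPM in AF16, and 1.51, 0 and 0 CPM in JU1421. Thus ZZY10307 and AF16 had it in every library and the other strains almost lacked it. ZZY10307 was higher than JU1421 by 4.66 (SE 1.15, edgeR adjusted p = 0.00262) and AF16 was higher than JU1421 by 5.38 (SE 1.17, adjusted p = 5.41e-05). ZZY10330 was lower than ZZY10307 by a log2 difference of -4.91 (SE 1.16, adjusted p = 0.00168). Without JU1421 replicate 3 the first of these fell short (4.11, adjusted p = 0.0618). Its size also rested on the lone counts: it was 8.34 without JU1421 replicate 1, and the difference between the sterile strains was -8.31 without ZZY10330 replicate 1 and -4.30 without ZZY10330 replicate 2.

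Another scarce family, cb_rnd-5_family-978, was higher in both sterile strains than in C. nigoni. It had 13.2, 14.1 and 12.6 CPM in ZZY10307, 7.26, 4.76 and 8.85 CPM in ZZY10330, 0, 4.07 and 1.51 CPM in AF16, and 0.38, 0.34 and 0 CPM in JU1421. Each sterile strain lay above both parents without overlap. The log2 difference from JU1421 was 5.56 for ZZY10307 (SE 1.50, edgeR adjusted p = 0.00755) and 4.63 for ZZY10330 (SE 1.47, adjusted p = 0.0335). The ZZY10307 call was lost without JU1421 replicate 3 (5.06, adjusted p = 0.0921). How the ZZY10330 call held under other settings is not given. Neither sterile strain was called against AF16 for this family.

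By level, cb_rnd-4_family-36 and cb_rnd-5_family-1231 lay between the parents in both sterile strains. Against AF16 the first was called in neither. The second was called lower than AF16 in ZZY10307 (edgeR adjusted p = 0.0130) and in ZZY10330 (adjusted p = 0.0451). The first had 23.3, 22.7 and 22.2 CPM in ZZY10307, 27.9, 25.9 and 9.69 CPM in ZZY10330, 42.9, 72.2 and 55.4 CPM in AF16, and 3.77, 1.71 and 9.43 CPM in JU1421. Replicate 3 of ZZY10330 came close to the highest library of JU1421. The log2 difference from JU1421 was 2.19 in ZZY10307 (SE 0.61, edgeR adjusted p = 0.0115), 2.09 in ZZY10330 (SE 0.61, adjusted p = 0.0176) and 3.51 in AF16 (SE 0.64, adjusted p = 5.71e-07). Without JU1421 replicate 3 the 3 values were 3.04, 2.94 and 4.36. The ZZY10307 call was lost without JU1421 replicate 1 (adjusted p = 0.0708) or 2 (0.129). The ZZY10330 call was lost without JU1421 replicate 1 (0.0783) or 2 (0.117), or ZZY10330 replicate 1 (0.0837). It was also lost with the 6 libraries of ZZY10330 and JU1421 alone (0.146) and with a replicate block (0.0572).

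The second, cb_rnd-5_family-1231, averaged 22.2 ± 9.39 CPM in ZZY10307, 27.4 ± 17.1 in ZZY10330, 72.4 ± 14.4 in AF16 and 5.55 ± 5.33 in JU1421. The log2 difference from JU1421 was 1.99 in ZZY10307 (SE 0.57, edgeR adjusted p = 0.0183), 2.28 in ZZY10330 (SE 0.58, adjusted p = 0.00375) and 3.69 in AF16 (SE 0.60, adjusted p = 3.22e-08). Without JU1421 replicate 2 these were 2.87, 3.17 and 4.57. The ZZY10307 call was lost without JU1421 replicate 1 (adjusted p = 0.0708) or 3 (0.349), or ZZY10307 replicate 2 (0.0506) or 3 (0.220), and with TMM factors (0.158). The ZZY10330 call was lost without JU1421 replicate 3 (0.159) or ZZY10330 replicate 3 (0.0547). The sixth family called higher in ZZY10307, cb_rnd-4_family-5119, rested on 9 counts in 2 libraries and is described with the AF16 families.

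In ZZY10330 against JU1421, 12 cb families were higher and 8 lower, 7.25% of those tested, while 5.46% of all repeat families were called (2.59% higher and 2.87% lower). With edgeR fitted to the 6 libraries of these strains alone, 6 were higher and 5 lower, and without JU1421 replicate 3 there were 4 higher and 4 lower. The median log2 difference of the tested cb families was 0.14, against 0.26 over all families. The abundant families above made up 4 of the 12 and 3 of the 8. Of the scarcer ones, cb_rnd-4_family-3514 had 31.6, 31.7 and 15.2 CPM in ZZY10330 and 4.91, 3.77 and 0 CPM in JU1421, with no overlap. Its log2 difference of 3.16 (SE 0.84, edgeR adjusted p = 0.00654) was 3.76 without JU1421 replicate 1 and lost its call without JU1421 replicate 3 (2.59, adjusted p = 0.160). cb_rnd-4_family-1989 had 16.0, 14.5 and 10.1 CPM in ZZY10330 and 61.9, 51.4 and 46.8 CPM in JU1421, again with no overlap (log2 -1.97, SE 0.55, edgeR adjusted p = 0.0120). It fell just short without JU1421 replicate 1 (-1.85, adjusted p = 0.0523).

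Some calls of ZZY10330 rested on a single library or on libraries that overlapped. All 56 counts of cb_rnd-5_family-96 in ZZY10330 came from replicate 2, with 0, 14.8 and 0 CPM, against no count in JU1421 or ZZY10307 and 14.9, 11.9 and 10.9 CPM in AF16. Over the groups the level in ZZY10330 was at least 16.2-fold that of JU1421, taking 3 counts as the floor of JU1421 (edgeR adjusted p = 0.0164), and without replicate 2 no count was left. That call was also lost with the 6 libraries of these strains alone (adjusted p = 0.142) and with a replicate block (0.255). cb_rnd-4_family-1230 had 6.97, 9.78 and 7.59 CPM in ZZY10330 and 50.2, 5.14 and 55.5 CPM in JU1421. These libraries overlapped although the family was called lower (log2 -2.18, SE 0.68, edgeR adjusted p = 0.0298). The call was lost without JU1421 replicate 1 (-1.89, adjusted p = 0.188) or 3 (-1.76, 0.334), or ZZY10330 replicate 1 (-2.08, 0.106) or 3 (-2.13, 0.0547).

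A trio of families had counts in every JU1421 library and nearly none in ZZY10330. cb_rnd-4_family-510 had 0 counts in ZZY10330 and 1.89, 3.08 and 6.53 CPM in JU1421, at least 12.3-fold lower (edgeR adjusted p = 0.0324). cb_rnd-5_family-114 had 0 counts in ZZY10330 and 3.40, 1.03 and 4.35 CPM in JU1421, at least 9.22-fold lower (adjusted p = 0.0396). cb_rnd-4_family-1140 had 0.58, 0 and 0 CPM in ZZY10330 and 1.51, 4.45 and 5.44 CPM in JU1421 (log2 -3.96, SE 1.21, adjusted p = 0.0282). In ZZY10307 all 3 families had a count in every library, from 0.61 to 7.53 CPM. These calls sat near the threshold, and each was lost without JU1421 replicate 3 (adjusted p = 0.168, 0.161 and 0.147 in the order above). With edgeR fitted to the 6 libraries of these strains alone, each was lost too (adjusted p = 0.218, 0.330 and 0.464). A replicate block also removed each call (0.0882, 0.101 and 0.0739). The first was also lost without AF16 replicate 2 (0.0503) or any library of ZZY10330 (0.0639 to 0.101). The second was also lost without JU1421 replicate 1 (0.0707), any library of AF16 (0.0508 to 0.0636) or any of ZZY10330 (0.0768 to 0.110). The third was also lost without AF16 replicate 2 (0.0526) or ZZY10330 replicate 2 (0.114) or 3 (0.0754), and its difference was -6.50 without ZZY10330 replicate 1.

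**Figure D4:**
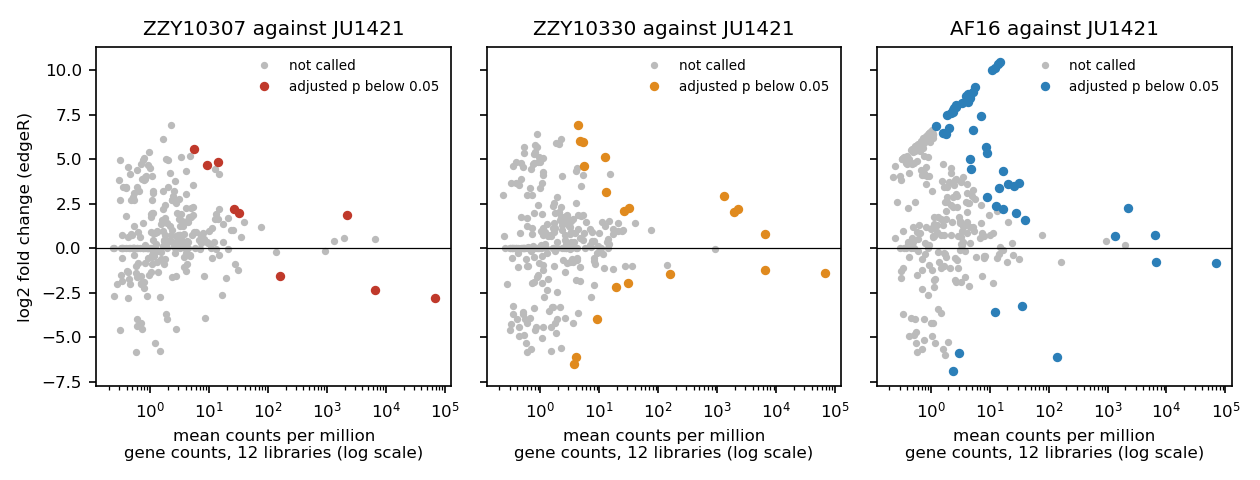
Log2 difference from JU1421, fitted with edgeR, against mean level over the 12 libraries on a log scale, for the 276 tested cb families in ZZY10307, ZZY10330 and AF16. Coloured points passed the test: 9, 20 and 49 families. The straight upper edge in the AF16 panel is made of families without a count in JU1421, whose fitted size depends on the prior count and is no bound.

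Between the parental species most of the called cb families were higher in C. briggsae. In AF16 against JU1421, 42 cb families were higher and 7 lower, 17.8% of those tested, while 20.5% of all repeat families were called. For the higher direction alone the cb share was 15.2%, against 7.47% of all families, and for the lower direction it was 2.54%, against 13.1%. The c_sp9 families ran the other way, with 10 higher and 84 lower. The median log2 difference was 1.62 over the cb families and 0.00 over all families. How reads that match families of both prefixes were assigned is not stated in the labels or files, and its part in these counts was not tested. With limma on log2 CPM 80 cb families were higher and 11 lower.

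Presence and absence showed the same contrast. Of the 361 cb families, 38 had a count in all 3 AF16 libraries and none in JU1421, and 7 were the reverse, while 9 and 50 of the 559 c_sp9 families did so. The largest counts among the 38 were those of cb_rnd-5_family-6811 and cb_rnd-4_family-5119. cb_rnd-5_family-6811 had 45.8, 68.4 and 61.4 CPM in AF16 and no count in JU1421, at least 164-fold higher against a floor of 3 counts (edgeR adjusted p = 1.03e-13). It had a single library with counts in each sterile strain, at 2.09 CPM in ZZY10307 and 2.03 CPM in ZZY10330.

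For cb_rnd-4_family-5119 the levels were 69.2, 43.9 and 51.6 CPM in AF16 and no count in JU1421, at least 151-fold higher (edgeR adjusted p = 2.62e-13). ZZY10307 had 0.70, 0 and 2.93 CPM and ZZY10330 had none. The 9 counts of ZZY10307 gave a call against JU1421 (adjusted p = 0.0372, at least 2.93-fold) and ZZY10330 was lower than ZZY10307 (adjusted p = 0.0352, at least 3.38-fold), though in both the libraries overlapped. The first call was lost without any library of JU1421 (0.105 to 0.146), AF16 replicate 1 (0.0600) or ZZY10307 replicate 3 (0.475). The second was lost without any library of ZZY10330 (0.0966 to 0.150), AF16 replicate 1 (0.0639) or ZZY10307 replicate 3 (0.530). With the 6 libraries of the strains compared alone, both were lost (0.400 and 0.568 in the order above). Both were also lost with a replicate block (0.105 and 0.118) and with DESeq2 (0.162 and 0.224).

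The next families of this kind were cb_rnd-5_family-367 and cb_rnd-3_family-812. The first had 42.9, 55.9 and 43.3 CPM in AF16 and none in JU1421, at least 133-fold higher (edgeR adjusted p = 1.16e-11). It was also called higher in ZZY10330 than in JU1421 (adjusted p = 0.0202). Against AF16 it was lower in ZZY10307 (log2 -5.69, adjusted p = 1.81e-07) and in ZZY10330 (-5.03, adjusted p = 1.79e-06). The second had 54.3, 39.9 and 35.8 CPM in AF16 and no count in any other strain, at least 121-fold higher than JU1421 (adjusted p = 3.26e-10). Against AF16 cb_rnd-3_family-812 was at least 123-fold lower in ZZY10307 and at least 139-fold lower in ZZY10330. cb_rnd-4_family-1594 averaged 0.46 ± 0.80 CPM in ZZY10307, 1.49 ± 2.36 in ZZY10330, 62.5 ± 12.9 in AF16 and 3.05 ± 2.22 in JU1421 (SD, n = 3). AF16 was higher than JU1421 by 4.33 (SE 0.80, adjusted p = 1.05e-06), and by 5.05 without JU1421 replicate 2.

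The 39 families called higher in AF16 outside the 10 most abundant were next summed. The sum was 188 ± 29.4 CPM in ZZY10307, 174 ± 51.3 in ZZY10330, 1035 ± 9.38 in AF16 and 74.5 ± 16.5 in JU1421 (SD, n = 3). The choice of these families fixes the order of AF16 and JU1421. It also favours places between them for the sterile strains, so no test is given. Among the 39, 9 had no count in ZZY10307, 13 had none in ZZY10330 and 23 had none in JU1421. Of all 361 cb families, 120, 156 and 161 had none in the same strains. The median family stood at 0.93 CPM in ZZY10307, 0.68 in ZZY10330, 17.0 in AF16 and 0.00 in JU1421. Replicate 3 of ZZY10330 was the lowest of the 6 sterile libraries, with 115 CPM against 199 to 208 in the other libraries of ZZY10330.

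**Figure D5:**
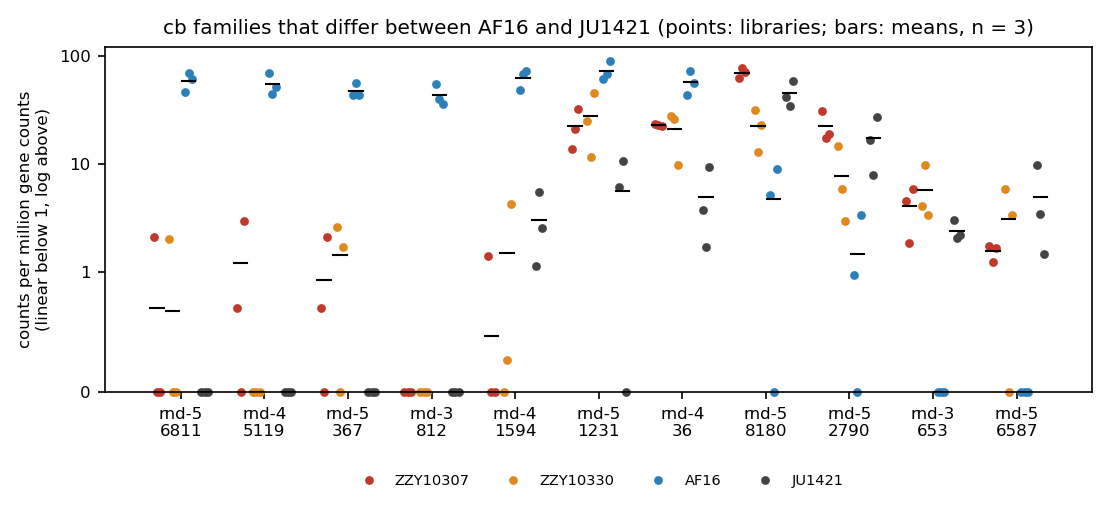
Levels of the families named for AF16 against JU1421 outside the 10 most abundant, in CPM on an axis linear below 1 and logarithmic above, with points for the 3 libraries of each strain and bars for means. The first 5 are far lower outside AF16, the next pair lies between the parents in sterile males, and the last 4 are lowest in AF16.

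Of the 7 families lower in AF16, cb_rnd-5_family-688, cb_rnd-5_family-2438 and cb_rnd-5_family-948 are given above. cb_rnd-5_family-8180 had 62.3, 76.1 and 70.3 CPM in ZZY10307, 31.1, 12.9 and 22.8 CPM in ZZY10330, 5.20, 0 and 9.04 CPM in AF16, and 41.5, 34.3 and 58.7 CPM in JU1421. No strain overlapped another, and the order was AF16, ZZY10330, JU1421 and ZZY10307. AF16 was lower than JU1421 by a log2 difference of -3.26 (SE 0.57, edgeR adjusted p = 2.86e-07), and ZZY10307 and ZZY10330 were higher than AF16 by 3.89 (SE 0.58, adjusted p = 8.67e-10) and 2.25 (SE 0.56, adjusted p = 0.000543). Without AF16 replicate 2 these were -2.65, 3.29 and 1.64, and without AF16 replicate 3 they were -4.13, 4.76 and 3.12, and the calls held. With the 6 libraries of the strains compared alone, both calls of sterile strains against AF16 were lost (adjusted p = 0.0546 for ZZY10307 and 0.0507 for ZZY10330).

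cb_rnd-5_family-2790 averaged 22.3 ± 7.24 CPM in ZZY10307, 7.76 ± 6.02 in ZZY10330, 1.45 ± 1.74 in AF16 and 17.2 ± 9.67 in JU1421. AF16 was lower than JU1421 by -3.59 (SE 0.92, edgeR adjusted p = 0.000809), with -2.97 without AF16 replicate 2 and -5.10 without AF16 replicate 3. cb_rnd-5_family-6587 and cb_rnd-3_family-653 had no count in AF16. They were at least 15.1-fold (adjusted p = 0.0169) and at least 7.54-fold (adjusted p = 0.0332) lower there than in JU1421. Both calls were lost without JU1421 replicate 1 (0.0816 and 0.0567) or any library of AF16 (0.0571 to 0.0819 for the first, 0.0792 to 0.111 for the second). The second was also lost with the 6 libraries of AF16 and JU1421 alone (0.0771) and with a replicate block (0.0549).

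Set against C. briggsae, the sterile strains had many scarce cb families lower and few higher. In ZZY10307 against AF16, 9 cb families were higher and 27 lower, 13.0% of those tested, while 21.4% of all repeat families were called (16.2% higher and 5.17% lower). In ZZY10330 against AF16, 8 were higher and 42 lower, 18.1% of those tested, while 22.4% of all were called (14.7% higher and 7.76% lower). The median log2 difference of the tested cb families was -0.77 in ZZY10307 and -1.12 in ZZY10330, against 0.59 and 0.32 over all families. With TMM factors, 7 were higher and 40 lower in ZZY10307. With the 6 libraries alone there were 12 and 66 in ZZY10307, and without ZZY10330 replicate 2 there were 15 and 47. These comparisons share the AF16 libraries with the comparison of the parents.

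Among the families lower in both, cb_rnd-4_family-1112 had 14.0, 28.5 and 25.6 CPM in AF16 and no count in any other strain. It was at least 65.1-fold lower in ZZY10307 (edgeR adjusted p = 1.17e-05) and at least 73.4-fold lower in ZZY10330 (adjusted p = 8.89e-06). cb_rnd-4_family-1058 had no count in ZZY10307, 0.87, 0 and 0 CPM in ZZY10330, 42.9, 26.3 and 31.3 CPM in AF16, and 0, 0 and 1.81 CPM in JU1421. It was at least 94.1-fold lower in ZZY10307 (adjusted p = 3.00e-08). Each of these families was seen in all 3 AF16 libraries and in at most 1 library of each other strain.

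Families higher than in AF16 included cb_rnd-4_family-883, with 16.0, 15.0 and 17.2 CPM in ZZY10307, 16.8, 38.3 and 4.64 CPM in ZZY10330, 1.95, 0.54 and 3.01 CPM in AF16, and 7.55, 8.56 and 5.44 CPM in JU1421. The ZZY10307 libraries lay close together and above AF16 and JU1421 (log2 3.13 against AF16, SE 0.93, edgeR adjusted p = 0.00545). cb_rnd-3_family-653 was seen in every library except those of AF16, and was at least 12.2-fold higher in ZZY10307 than in AF16 (adjusted p = 0.0154) and at least 19.3-fold higher in ZZY10330 (adjusted p = 0.00762). The ZZY10307 call was lost without any library of AF16 (0.0516 to 0.0686).

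Other families with no count in one strain were scarcer still. cb_rnd-4_family-637 and cb_rnd-4_family-76 had 37 counts each in ZZY10307 and none in AF16, at least 13.6-fold higher (edgeR adjusted p = 0.0291 and 0.0263). Both calls were lost without any library of AF16 (0.0912 to 0.109 and 0.0832 to 0.102), the first also without ZZY10307 replicate 3 (0.0678) and the second without ZZY10307 replicate 1 (0.0532). cb_rnd-4_family-5 had 1.39, 7.36 and 6.69 CPM in ZZY10307, 3.48, 4.76 and 0.42 CPM in ZZY10330, 0, 1.90 and 0.75 CPM in AF16 and no count in JU1421, and was not called in either sterile strain (edgeR adjusted p = 0.0713 in ZZY10307 and 0.107 in ZZY10330 against JU1421). cb_rnd-5_family-1918 was seen in JU1421 alone, with 4.53, 0.34 and 2.18 CPM in its libraries and no count in the other 9, and was not called in ZZY10307 (adjusted p = 0.341) or ZZY10330 (adjusted p = 0.289) against JU1421. cb_rnd-5_family-2642 had 3.83, 3.07 and 3.35 CPM in ZZY10307 and no count in ZZY10330 (adjusted p = 0.236), at least 10.9-fold lower. With limma the difference of cb_rnd-5_family-2642 passed (adjusted p = 0.0494), as did that of cb_rnd-4_family-5 in ZZY10307 against JU1421 (adjusted p = 0.0432), which was at least 14.3-fold.

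Between the sterile strains, 5 cb families were higher and 3 lower in ZZY10330, 2.90% of those tested. This was at the background, since 2.87% of all repeat families were called (1.01% higher and 1.87% lower). The 5 were cb_rnd-5_family-3381, cb_rnd-5_family-688, cb_rnd-5_family-4471, cb_rnd-5_family-2438 and cb_rnd-5_family-96. The 3 were cb_rnd-3_family-789, cb_rnd-4_family-1140 and cb_rnd-4_family-5119. Leaving out ZZY10330 replicate 2 or ZZY10307 replicate 3 left 4 higher and 1 lower. With the repeat counts themselves as library sizes, after removal of cb_rnd-5_family-688, 5 were higher and 6 lower.

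The scarce families as a group set AF16 apart. Outside the 10 most abundant, cb families summed to 888, 862 and 1021 CPM in ZZY10307, 892, 925 and 565 CPM in ZZY10330, 1931, 1761 and 1869 CPM in AF16, and 780.0, 425 and 616 CPM in JU1421. AF16 lay above all other libraries, ZZY10307 lay above JU1421, and ZZY10330 overlapped both. AF16 stood at 3.05 times JU1421, and ZZY10307 at 0.498 and ZZY10330 at 0.428 of AF16 (exact p = 0.1 in each). ZZY10307 stood at 1.52 times JU1421 (exact p = 0.1) and ZZY10330 at 1.31 times (exact p = 0.3). With TMM factors the ZZY10307 value was 1.17 (exact p = 0.4).

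Each round of the repeat search showed this order of AF16 over JU1421. Outside the 10 most abundant, families of round 3 summed to 86.0 ± 21.0 CPM in ZZY10307, 69.5 ± 42.0 in ZZY10330, 236 ± 15.6 in AF16 and 34.5 ± 21.9 in JU1421. Families of round 4 summed to 412 ± 55.3, 388 ± 131, 795 ± 48.7 and 284 ± 89.9 CPM in the same strains. Those of round 5 summed to 411 ± 18.9, 326 ± 37.4, 807 ± 43.1 and 282 ± 67.0 CPM. The 361 families comprised 6 of round 2, 21 of round 3, 112 of round 4 and 222 of round 5, and 9 of the 10 most abundant came from round 5.

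As a share of all repeat counts left without cb_rnd-5_family-688, cb families took 52.9, 52.0 and 53.0% in ZZY10307, 66.6, 66.3 and 70.6% in ZZY10330, 71.1, 71.5 and 75.6% in AF16, and 57.9, 60.4 and 57.9% in JU1421. No strain overlapped another, and the order was ZZY10307, JU1421, ZZY10330 and AF16. The difference from JU1421 was -6.04 percentage points in ZZY10307, 9.12 in ZZY10330 and 14.0 in AF16 (exact p = 0.1 in each). Among families outside the 10 most abundant of each prefix, the cb share was 10.4 to 12.4% in ZZY10307, 10.2 to 13.2% in ZZY10330, 43.8 to 46.0% in AF16 and 8.17 to 10.8% in JU1421. By this share of scarce families both sterile strains lay near JU1421 and far from AF16.

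The scatter between libraries of a strain was wide for scarce families. Among families with at least 30 counts in a strain, the median coefficient of variation was 31.3% in ZZY10307, 61.9% in ZZY10330, 37.9% in AF16 and 53.2% in JU1421. For the 10 most abundant it was 13.7, 28.7, 11.4 and 12.1% in the same strains. ZZY10330 was thus the most variable strain at both levels. A count of 0 in a strain allows up to 3 counts over its libraries, by counting error alone.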

How the data were processed

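Sequencing libraries of the male samples were prepared from 300 ng of total RNA with a stranded TruSeq mRNA kit and read on a MiSeq from both ends (150 nt), per the labels. The authors deposited raw counts per gene and per repeat family for 12 male libraries, per the file headers. Trimmomatic and edgeR are listed in the submitters' processing notes, with no version. No label or file header states which aligner, counter, genome build or annotation was used, nor the strand setting or how reads shared between families, or between a family and a gene, were treated.

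Library sizes were the gene count totals (23439 genes listed), without further factors. The 696 families that reached 10 counts in all (276 of them cb) were fitted together in edgeR 4.0.16 (R 4.3.3), with 1 coefficient per strain and the robust quasi-likelihood F test. Values of p were adjusted by the Benjamini-Hochberg method over all 696, and a family is called below 0.05. For 690 of them (99.1%) the prior degrees of freedom exceeded 100, so the test used a spread shared by all families and a family's own scatter hardly entered. limma 3.58.1 on log2 CPM (prior count 2) was therefore added after seeing the data. DESeq2 1.42.0, other scalings, filters and left-out libraries were alternatives. For sums and shares the exact permutation test, two-sided, was used.

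Named were the 10 most abundant families, up to 8 called each way with the lowest adjusted p against JU1421 and up to 4 in other comparisons, and up to 3 each way without a count in one strain. A family named in 1 comparison may be given in others too, and 4 uncalled families without a count in one strain are left out. The members, lists and this rule were chosen with earlier results of these data known. Folds against a strain without counts are bounds against 3 counts over the strain, and cover counting error only.

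Identifiers are paired with no names in the files, so planned tissue markers were not used. The male-biased share stands in their place, from 1854 genes with a ratio of 4 or more between AF16 males and the AF16 female library (prior count 2, at least 5 CPM, every male library on that side). Replicates differed by far more than sampling noise, with a chi-square per degree of freedom of 9.9 to 68 over repeats, so none was treated as a duplicate. Female libraries entered only that list.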

Additional observations from a re-analysis of the deposited data

Results flagged for a closer look

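The sterile strains had different effects against JU1421 in 8 cb families, by the direct edgeR contrast of ZZY10330 with ZZY10307 at an adjusted p below 0.05. That is 2.90% of the cb families tested, at the background of 2.87% called among all repeat families. On the log2 scale, ZZY10330 was higher by 2.54 in cb_rnd-5_family-3381, 1.38 in cb_rnd-5_family-688, 1.50 in cb_rnd-5_family-4471 and 1.12 in cb_rnd-5_family-2438. The fitted 6.91 of cb_rnd-5_family-96 came from replicate 2 of ZZY10330 alone, against no count in ZZY10307, and is no bound. ZZY10330 was lower by a log2 difference of -4.91 in cb_rnd-3_family-789 and -4.30 in cb_rnd-4_family-1140. The latter set 2 counts in ZZY10330 against 39 in ZZY10307. Its edgeR call was lost without ZZY10307 replicate 1 (adjusted p = 0.0544) or 3 (0.154), or ZZY10330 replicate 2 (0.106) or 3 (0.0966). It was also lost with a replicate block (0.0593) and with the 6 libraries of these strains alone (0.490). The fitted -4.82 of cb_rnd-4_family-5119 set no count in ZZY10330 against 9 counts in 2 libraries of ZZY10307, and is likewise no bound. The share of male-biased genes was also higher in ZZY10330 (16.9 to 20.5%) than in ZZY10307 (11.6 to 12.7%), and its part in these differences was not tested.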

How the results depend on the processing

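The sums of cb families kept their direction with TMM factors or DESeq2 size factors of the genes, a replicate block and each library left out, and the cb share of repeat counts did so with the last 2. Repeat totals, which leave out cb_rnd-5_family-688 throughout, were not tried for the sums. On that scale the sum without cb_rnd-5_family-688 is the cb share, which was lower in ZZY10330 (67.8%) than in AF16 (72.7%), whereas the sum in CPM stood at 1.12 times AF16. Replicate numbers did not pair the libraries: deviations of same-numbered libraries correlated between -0.0967 and 0.0657 over repeats. With a replicate block, 10 cb families were called in ZZY10330 against JU1421 and 5 in ZZY10330 against ZZY10307.

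Counts of called families moved most. No share over all repeat families is given for these settings, so the counts do not tell cb families from the rest. ZZY10307 against JU1421 gave 14 with repeat totals as library sizes, 17 with its 6 libraries alone and 5 to 14 with 1 library left out. The split was 3 higher and 6 lower with TMM factors or DESeq2 size factors, 4 and 4 with TMM on repeat counts, and 11 and 3 with repeat totals. ZZY10330 against JU1421 gave 11 with its 6 libraries alone, 13 with limma, and 8 to 19 with 1 library left out. AF16 against JU1421 gave 91 with limma and 40 to 64 with 1 library left out. ZZY10330 against ZZY10307 gave 5 to 9 with 1 library left out. ZZY10307 against AF16 gave 78 with its 6 libraries alone, 89 with limma and 25 to 62 with 1 library left out. Its split was 7 and 42 with DESeq2 size factors and 7 and 47 with TMM on repeat counts. ZZY10330 against AF16 gave 79 with limma and 38 to 54 with 1 library left out.

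cb_rnd-5_family-688 lost its call in AF16 against JU1421 with TMM on repeat counts (-0.76, adjusted p = 0.0657). In ZZY10330 against AF16 it lost the call with DESeq2 (-0.55, adjusted p = 0.0655) and with the 6 libraries alone (-0.55, adjusted p = 0.0725), and ranged from -0.74 to -0.33 with 1 library left out. Its other calls held. cb_rnd-5_family-2438 lost its call in AF16 against JU1421 with TMM on repeat counts (-0.69, adjusted p = 0.1002). Calls of named families lost under TMM factors of the genes were cb_rnd-4_family-36, cb_rnd-5_family-1231 and cb_rnd-4_family-5119 (ZZY10307 against JU1421), cb_rnd-5_family-81 (ZZY10330 against JU1421) and cb_rnd-5_family-3381 (AF16 against JU1421, adjusted p = 0.0792). Calls lost with limma were those of cb_rnd-5_family-96, cb_rnd-4_family-1140, cb_rnd-4_family-1230 and cb_rnd-5_family-114 (ZZY10330 against JU1421), cb_rnd-4_family-5119 (ZZY10307 against JU1421 and ZZY10330 against ZZY10307) and cb_rnd-5_family-3381 (AF16 against JU1421). Calls gained under TMM factors of the genes were cb_rnd-5_family-948 (ZZY10330 against JU1421), cb_rnd-5_family-1032 and cb_rnd-4_family-637 (AF16 against JU1421), and cb_rnd-5_family-4518, cb_rnd-5_family-3620 and cb_rnd-5_family-1032 (ZZY10307 against AF16). The causes were not tested.

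The signs that turned belonged to uncalled differences near 0 among the 10 most abundant families. With repeat totals as library sizes, the log2 difference was 0.134 for cb_rnd-5_family-3620 and 0.0337 for cb_rnd-5_family-948 in ZZY10307 against JU1421. In ZZY10330 against ZZY10307 it was -0.0699 for cb_rnd-5_family-81, -0.0355 for cb_rnd-5_family-4518, -0.278 for cb_rnd-5_family-3620 and -0.295 for cb_rnd-5_family-1032, and in ZZY10330 against AF16 -0.191 for cb_rnd-5_family-81. With TMM factors, cb_rnd-5_family-3381 was at -0.00916 in ZZY10307 against JU1421 and cb_rnd-5_family-81 at -0.0795 in ZZY10330 against AF16. With DESeq2 size factors, cb_rnd-5_family-81 was at -0.0592 there and cb_rnd-3_family-224 at 0.000425 in ZZY10330 against ZZY10307. With TMM on repeat counts, cb_rnd-5_family-4471 was at -0.0309 in ZZY10307 against AF16, and cb_rnd-5_family-81 at -0.276 and cb_rnd-3_family-224 at -0.0215 in ZZY10330 against AF16. With limma the last was at -0.106.

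With 1 library left out, cb_rnd-5_family-3620 ranged from -0.273 to 0.130 in ZZY10330 against JU1421 and from -0.129 to 0.273 in ZZY10330 against ZZY10307. In that comparison cb_rnd-5_family-1032 ranged from -0.0887 to 0.362 and cb_rnd-3_family-224 from -0.865 to 0.311. cb_rnd-5_family-4471 ranged from -0.0352 to 0.317 in AF16 against JU1421, and cb_rnd-5_family-81 from -0.412 to 0.00433 in ZZY10307 against AF16. In ZZY10330 against AF16, cb_rnd-5_family-81 ranged from -0.110 to 0.281, cb_rnd-5_family-4518 from -0.112 to 0.00462 and cb_rnd-3_family-224 from -0.396 to 0.781.

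Depth limits the scarce families most: 3 counts in a library stand for 0.793 to 1.26 CPM.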
